A study of Homo sapiens with 6 samples.

Results

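The respiratory chain of Mum-2b cells, a human uveal melanoma line, was described gene by gene after knockdown of NELFCD. Members were the protein-coding genes of the deposited count table whose symbols name subunits of complexes I to V or protein genes of the mitochondrial chromosome. This rule found 103 of 58735 genes, of which 90 lie in nuclear chromosomes and 13 in the mitochondrial genome. The 3 knockdown libraries have the genotype NELFCD_knockdown and were made with a short hairpin RNA (shRNA), and the 3 control libraries are named NC with the genotype WT. No treatment or time was given for either group. The same hairpin number stands in every knockdown title, and what the hairpin does to NELFCD and to other transcripts cannot be told apart. The protein NELFCD belongs to the negative elongation factor (NELF), which pauses RNA polymerase II near the start of genes. The labels do not say whether the replicates were separate cultures, so p-values measure only the spread between these libraries.

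Complex I (NADH dehydrogenase), complex II (succinate dehydrogenase), complex III (cytochrome bc1) and complex IV (cytochrome c oxidase) pass electrons from NADH and succinate to oxygen, and complexes I, III and IV pump protons out of the mitochondrial matrix. Complex V, the ATP synthase, lets the protons back and makes ATP. All complexes but complex II are built from proteins of both genomes: the nuclear genes are transcribed by RNA polymerase II, the enzyme NELF acts on, and the mitochondrial genes by a polymerase of their own, POLRMT.

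Libraries held 14306733 to 16656630 counts. NELFCD stood at 20.7, 37.4 and 40.3 CPM (a gene's counts relative to the scaled size of its library) in knockdown replicates 1 to 3, against 65.5, 88.3 and 83.5 CPM in control replicates 1 to 3. The groups did not overlap, and knockdown cells held 41.5% of the control mean (32.8 ± 10.6 against 79.1 ± 12 CPM, SD, n = 3 each, exact permutation p = 0.1, the smallest possible with 3 libraries each). Its edgeR log2 fold change was -1.27 without the replicate number in the model (adjusted p = 0.53) and -1.30 with it (adjusted p = 0.00046). Both libraries numbered 1 stood apart from the other libraries: with the group in the model, edgeR called 61.8% of all tested genes different between replicate 1 and replicates 2 and 3. The label was checked on markers. Of 8 melanocyte markers 3 had enough counts to be tested, with TYR at 1 count in all libraries together and PMEL at no more than 0.959 CPM, and the summed level of the list was 7.61 to 18.3 CPM in knockdown and 7.50 to 10.8 CPM in control libraries. The keratin genes KRT8 (mean 818 CPM in knockdown and 730 CPM in control) and KRT18 (499 and 364 CPM) were abundant, while the other epithelial markers EPCAM, CDH1, KRT5 and KRT14 did not exceed 0.637 CPM. The endothelial marker CDH5, which such lines are known to express, had 53.7 CPM in knockdown and 140 CPM in control. The other endothelial markers PECAM1, VWF, KDR and TEK did not exceed 4.66 CPM. Summed fibroblast markers stayed at 0.727 to 2.26 CPM and summed immune markers at 0.199 to 0.991 CPM over both groups. The data therefore show a line with few melanocyte transcripts, and the name Mum-2b is kept as the label's.

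Because both libraries numbered 1 deviated together, the counts of called members are given without and with the replicate number in the edgeR model. Numbers 2 and 3 are matched by number only. The difference between replicates 2 and 3 had a correlation of -0.005 between knockdown and control over genes. Without it, edgeR called 0 of 14844 tested genes at an adjusted p under 0.05, a background of 0%. Among all genes 954 had an unadjusted p under 0.05, none of them a member, and DESeq2, limma-voom and limma on log2(FPKM + 1) also called 0 members, while DESeq2 called 0.323% of all genes higher and 0.694% lower. The smallest adjusted p of a member was 0.83 (UQCRC2). With the replicate number in the model, 8 of the 82 tested nuclear members rose (9.76%) and 0 fell, and 0 of the 13 mitochondrial members were called. Over all genes tested 5.48% rose and 8.01% fell in the same fit. DESeq2 with the replicate number called 3 of the nuclear members higher, where it called 2.98% of all genes higher and 6.09% lower. In limma-voom the count was 8, where 5.79% of all genes were higher and 8.56% lower. Neither tool called a member lower, and the DESeq2 count is near its background. Log2 fold changes and calls below are from the fit with the replicate number unless stated, and none of the calls passed in the fit without it.

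**Figure D1:**
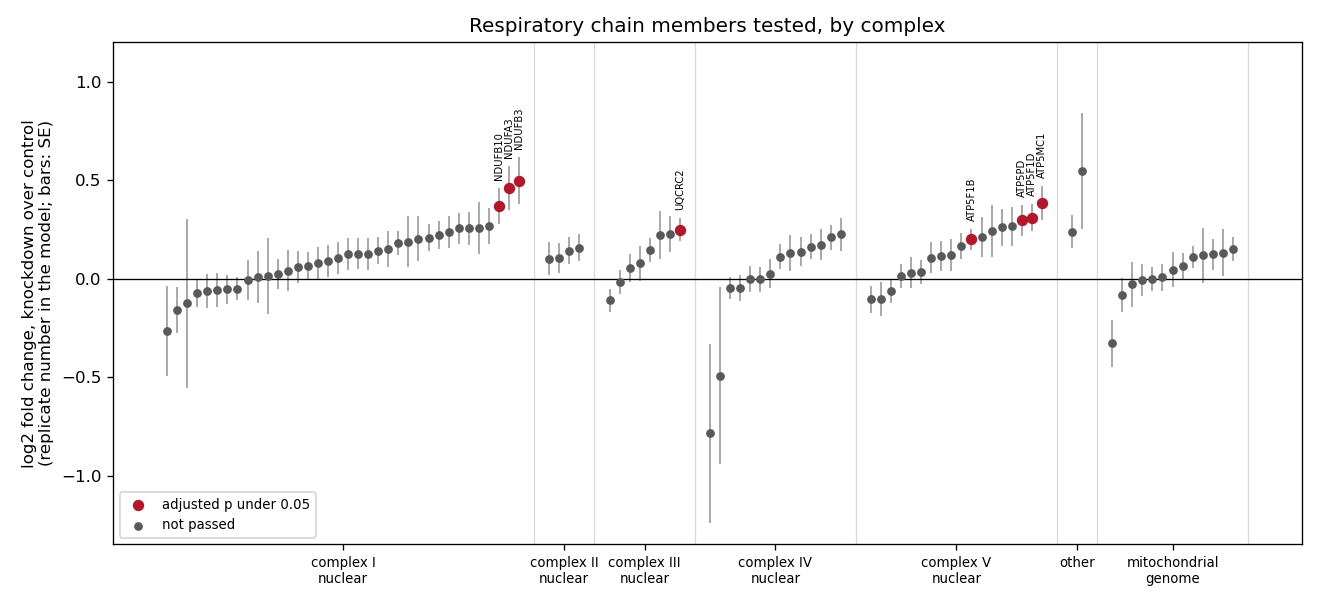
Each point is 1 tested member, ordered within its complex by its log2 fold change (knockdown over control, replicate number in the edgeR model), with its SE as a bar. The 8 members in red had an adjusted p under 0.05 and all lie above 0, between 0.20 and 0.50, and the 13 mitochondrial genes lie between -0.33 and 0.15.

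The changes were small. The median log2 fold change was 0.12 over the 82 nuclear members, 0.05 over the 13 mitochondrial members and 0.00 over all genes tested. Within the same fit, leaving out pair 1, 2 or 3 gave nuclear medians of 0.08, 0.15 and 0.14 and mitochondrial medians of 0.15, -0.02 and -0.04. Without the replicate number the nuclear median was 0.11, and it ranged from 0.015 without control replicate 1 to 0.20 without knockdown replicate 1. A correction for gene length in the fit with the replicate number gave 0.07 for nuclear and -0.08 for mitochondrial members. By complex, the nuclear medians were 0.11 for complex I, 0.12 for complex II, 0.11 for complex III, 0.07 for complex IV and 0.14 for complex V. A log2 fold change above 0 was found for 62 of 82 nuclear members (75.6%), against 50% of all genes. Knockdown was above control in every one of the 3 replicate pairs for 45 nuclear members (54.9%), against 25.8% of all genes, and below it in every pair for 7, where 26.9% of all genes were below. Groups did not overlap, with knockdown higher, for 7 nuclear members (8.54%), a share close to the 7.52% of all genes. No nuclear or mitochondrial member that was tested had all knockdown libraries below all control libraries, which held for 7.38% of all genes. In bulk RNA, fewer cells that use a gene and less of its RNA per cell cannot be told apart.

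The largest share of calls was in complex V, where 4 of 18 nuclear members rose (22.2%), against 5.48% of all genes. DESeq2 with the replicate number called 1 of the 18 higher (all genes 2.98%). The edgeR fit with a correction for gene length also called 1 (all genes 5.39%). ATP5F1B encodes the catalytic beta subunit of the F1 head, the part that forms ATP (chromosome 12, 56638175 to 56646068, minus strand, hg38). It had 660, 789 and 775 CPM in knockdown replicates 1 to 3 and 562, 693 and 684 CPM in control replicates 1 to 3. Knockdown was higher within each pair, while knockdown replicate 1 lay below control replicates 2 and 3. The log2 fold change was 0.20 ± 0.0537 (SE), with an edgeR adjusted p of 0.0413. ATP5F1D encodes the delta subunit of the stalk that turns inside the head (chromosome 19, 1241746 to 1244826, plus strand). Its levels were 75.4, 87.5 and 86.6 CPM in knockdown and 56.9, 70.1 and 75.0 CPM in control cells. The lowest knockdown library lay just above the highest control library, and the log2 fold change was 0.31 ± 0.0683 (adjusted p = 0.0211). Of 12 fits with the replicate number, ATP5F1B passed in 8 and ATP5F1D in 9. These fits reuse the same libraries, so they are not independent tests. ATP5F1B did not pass without pair 2 or without pair 3, nor ATP5F1D without pair 2, and neither passed in DESeq2 or with a correction for gene length (adjusted p up to 0.311 and 0.128).

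ATP5MC1 is one of the genes for the c subunit, whose copies form the proton-driven ring in the membrane (chromosome 17, 48892765 to 48895871, plus strand). Counts scaled to 57.6, 111 and 111 CPM in knockdown and 36.7, 92.4 and 92.2 CPM in control replicates 1 to 3. Both libraries numbered 1 were far below the others, and knockdown exceeded control in each pair, most in pair 1. The log2 fold change was 0.38 ± 0.0864 (edgeR adjusted p = 0.0226), the largest in complex V. The other c subunit genes, which encode the same mature protein, had log2 fold changes of 0.01 for ATP5MC2 and -0.06 for ATP5MC3 and did not pass. ATP5PD encodes subunit d of the peripheral stalk that holds the head still (chromosome 17, 75038863 to 75046985, minus strand). It reached 48.5, 62.9 and 55.4 CPM in knockdown and 44.3, 47.7 and 43.4 CPM in control cells. The groups did not overlap, although pair 1 differed least, and the log2 fold change was 0.30 ± 0.0787 (edgeR adjusted p = 0.04). Of its exon bases 19.1% also lie in exons of KCTD2 or RN7SL573P, and whether counting used strand is not given in the sources used here. ATP5MC1 passed in each of the 12 fits, while ATP5PD passed in 8 and was lost without pair 2, without pair 3, in DESeq2 and with the length correction (adjusted p up to 0.255).

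Other members of complex V did not pass. The catalytic head's alpha subunit gene ATP5F1A had a log2 fold change of 0.03 and the central stalk's gamma subunit gene ATP5F1C one of -0.11. ATP5IF1, whose product blocks the synthase from running backwards, had 41.1, 38.8 and 41.5 CPM in knockdown and 35.1, 37.2 and 40.6 CPM in control cells, with a log2 fold change of 0.11 (adjusted p = 0.41 in edgeR). Thus 2 genes of the F1 part, ATP5F1B and ATP5F1D, 1 of the membrane ring and 1 of the peripheral stalk were among the calls.

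Complex I had 3 calls among 36 nuclear members (8.33%, against 5.48% of all genes that rose), all of them accessory subunits that carry no redox centre. NDUFB3 belongs to the proton-pumping membrane arm (chromosome 2, 201071433 to 201085750, plus strand). It had 17.7, 27.3 and 25.8 CPM in knockdown and 9.87, 21.9 and 19.6 CPM in control cells. Each knockdown library exceeded the control of its number, most in pair 1, and the log2 fold change of 0.50 ± 0.119 was the largest of the calls (edgeR adjusted p = 0.0277). It passed in 11 of the 12 fits, all but the one corrected for length (adjusted p = 0.0549). Of its exon bases 19.8% lie in exons of FAM126B as well.

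NDUFA3, a small accessory subunit anchored in the membrane, lies on chromosome 19 (54102728 to 54109257, plus strand). Levels were 28.2, 33.7 and 38.2 CPM in knockdown and 17.2, 29.9 and 26.6 CPM in control cells. Knockdown replicate 1 lay between the control libraries, so the groups overlapped, and the log2 fold change was 0.46 ± 0.112 (edgeR adjusted p = 0.029). NDUFB10, another accessory subunit of the membrane arm, lies on chromosome 16 (1959508 to 1961975, plus strand). It was measured at 32, 42.0 and 46.1 CPM in knockdown and 23.6, 37.1 and 32.6 CPM in control cells. The log2 fold change was 0.37 ± 0.09 (edgeR adjusted p = 0.0293), with overlapping groups. NDUFA3 passed in each of the 12 fits, and NDUFB10 in 9, not without pair 3, in DESeq2 or with the length correction (adjusted p up to 0.167).

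The nuclear subunits of complex I that form its catalytic core were not called. NDUFV1, which binds NADH and the flavin, had the largest log2 fold change of the 7, 0.18 (edgeR adjusted p = 0.0817). The iron-sulphur subunit genes NDUFS1, NDUFS7 and NDUFS8 had log2 fold changes of -0.05, 0.13 and 0.12. NDUFS3, another core subunit of the arm in the matrix, had one of 0.02. NDUFV2, the partner of NDUFV1, was at only 3.59, 2.48 and 2.47 CPM in knockdown and 4.87, 3.26 and 2.31 CPM in control cells. Its log2 fold change of -0.26 had an edgeR adjusted p of 0.48. The median was 0.02 over these 7 core genes and 0.13 over the 29 accessory genes of complex I, a difference that was not tested.

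Several complex I genes had values far below those of their partners. On the FPKM scale, which divides by gene length, NDUFV2 averaged 1.03 in knockdown and 1.28 in control cells, NDUFA7 0.574 and 0.619, and NDUFA13 1.47 and 1.47. NDUFS5, an accessory subunit and the highest nuclear member of the complex, averaged 125 FPKM in knockdown and 115 FPKM in control cells. The subunits of complex I assemble in equal numbers, but their gene rows spanned this range in both groups alike. Of the exon bases 28.4% in NDUFV2, 33.5% in NDUFA7 and 21.0% in NDUFA13 are shared with other annotated genes, and the pseudogene NDUFV2P1 took 32, 35 and 31 counts in knockdown and 25, 42 and 53 counts in control libraries. How counting treated reads that match several genes is not given in the sources used here, and its part in these levels was not tested.

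In complex III 1 of 8 nuclear members rose (12.5%, against 5.48% of all genes), a share that rests on 1 gene. UQCRC2 encodes a core protein of the part facing the matrix (chromosome 16, 21952660 to 21983660, plus strand). It held 183, 178 and 177 CPM in knockdown and 157, 148 and 147 CPM in control replicates 1 to 3. This was the clearest separation among the calls: the groups did not overlap, the 3 pairs differed by 0.22, 0.27 and 0.26 on the log2 scale, and replicate 1 lay near the others. The log2 fold change was 0.25 ± 0.0577 (edgeR adjusted p = 0.0248). It passed in 9 of the 12 fits, not without pair 2, without pair 3 or in DESeq2 (adjusted p up to 0.21). Its companion core protein gene UQCRC1 had a log2 fold change of -0.02 and the Rieske iron-sulphur subunit gene UQCRFS1 one of 0.15, and neither passed. UQCRH, the hinge protein that helps cytochrome c dock, was the complex's nuclear gene of highest FPKM, with 63.8 in knockdown and 62.3 in control cells and a log2 fold change of 0.05.

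Complexes II and IV had 0 calls in edgeR, DESeq2 and limma-voom with the replicate number in the model, where 1 of 4 and 3 of 14 nuclear members had an unadjusted p under 0.05 in edgeR. Over all genes 30.5% had such a p, so these counts do not stand out from the background. In complex II, which is wholly nuclear, the flavin subunit gene SDHA had 285, 236 and 225 CPM in knockdown and 223, 234 and 234 CPM in control cells. Only pair 1 differed by more than 0.1 on the log2 scale. The iron-sulphur subunit gene SDHB (32 FPKM in knockdown, 29.5 FPKM in control) had a log2 fold change of 0.14, and the membrane anchors SDHC and SDHD had 0.10 and 0.16.

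In complex IV, COX5A, a subunit that surrounds the catalytic core, came nearest to a call. It had 88.8, 110 and 100 CPM in knockdown and 73.3, 95.9 and 90.1 CPM in control cells, with a log2 fold change of 0.21 (edgeR adjusted p = 0.0596). COX5B had 0.14 and COX4I1, which binds ATP and tunes the enzyme, -0.05. COX8A, the complex's nuclear gene of highest FPKM, averaged 114 FPKM in knockdown and 119 FPKM in control cells. NDUFA4, whose protein was found in complex IV despite its name, had a log2 fold change of 0.03. Forms limited to some tissues or conditions were near or at 0. COX4I2, COX6A2 and COX7B2 had 0 counts in each library, COX8C had 1 count in knockdown replicate 1, and COX6B2 had 1, 0 and 0 counts in knockdown and 5, 1 and 5 in control libraries. The muscle form COX7A1 averaged 0.674 CPM in knockdown and 1.001 CPM in control cells. NDUFA4L2, a hypoxia-induced relative of NDUFA4, had 1.66, 0.727 and 1.17 CPM in knockdown and 5.14, 1.42 and 0.625 CPM in control cells. Its pairs went in different directions, and the log2 fold change of -0.79 did not pass (edgeR adjusted p = 0.28).

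The remaining members fell outside the complexes by the rule's symbols alone. ATP5S, which is not a subunit of the synthase, had a log2 fold change of 0.24 and UQCRHL, a copy of UQCRH, one of 0.55, and neither passed. The readthrough genes NDUFC2-KCTD14 and ATP5MF-PTCD1 and the copy ATP5MGL had 0 to 3 counts per library and were not tested, as were the 5 complex IV genes above with 0 to 5 counts, so 8 of the 103 members have no test.

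**Figure D2:**
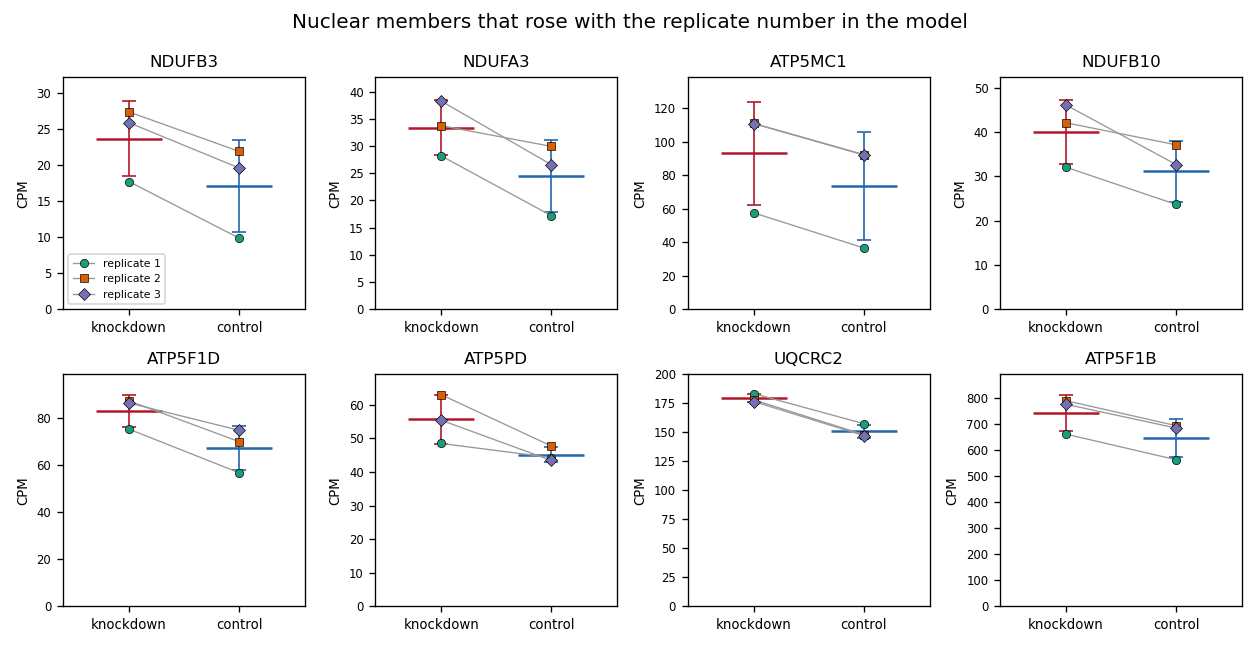
CPM of the 8 members that rose, in knockdown (left) and control (right) libraries, with a grey line joining equal replicate numbers, the group mean as a bar and the SD (n = 3) as whiskers. Every line falls to the right, and in ATP5MC1 both libraries numbered 1 lie far below the rest (57.6 CPM in knockdown, 36.7 CPM in control).

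Promoter sequence is shown for 4 of the members that rose, to set their starts beside the motifs for which respiratory chain promoters are known. Windows of 300 bases, 250 before and 50 after each annotated start, came from RefSeq (GRCh38.p14), which held 81 windows for 68 of the 90 nuclear members and 35116 windows in all. Motifs were searched on both strands, and capitals mark each match. The motifs were GCGCA, any base and GCGC in a row for the nuclear respiratory factor NRF1, CCGGAAG for ETS factors including GABP, AAGATGG for YY1, CCAAT for NF-Y, TATAAA for the TATA box and CACGTG for the E box.
ATP5MC1 promoter window, chr17:48892537-48892836, plus strand: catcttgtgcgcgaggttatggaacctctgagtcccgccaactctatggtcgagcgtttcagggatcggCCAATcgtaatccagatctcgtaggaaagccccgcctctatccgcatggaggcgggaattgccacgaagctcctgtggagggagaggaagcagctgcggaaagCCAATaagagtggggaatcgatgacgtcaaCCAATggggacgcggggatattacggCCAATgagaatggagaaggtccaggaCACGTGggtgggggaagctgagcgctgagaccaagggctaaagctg
ATP5PD promoter window, chr17:75046920-75047219, minus strand: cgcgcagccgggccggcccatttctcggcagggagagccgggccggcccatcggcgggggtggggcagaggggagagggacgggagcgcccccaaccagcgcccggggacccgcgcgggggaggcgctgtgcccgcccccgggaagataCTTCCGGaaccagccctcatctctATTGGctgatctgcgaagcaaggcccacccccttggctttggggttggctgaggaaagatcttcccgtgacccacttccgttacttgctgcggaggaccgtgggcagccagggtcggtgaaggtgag
UQCRC2 promoter window, chr16:21953111-21953410, plus strand: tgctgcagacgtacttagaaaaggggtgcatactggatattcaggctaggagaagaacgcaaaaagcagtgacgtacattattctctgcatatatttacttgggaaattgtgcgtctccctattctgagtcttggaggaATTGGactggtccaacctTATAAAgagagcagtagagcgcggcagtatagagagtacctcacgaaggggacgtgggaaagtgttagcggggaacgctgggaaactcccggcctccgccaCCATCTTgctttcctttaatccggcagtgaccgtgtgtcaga
NDUFA3 promoter window, chr19:54102605-54102904, plus strand: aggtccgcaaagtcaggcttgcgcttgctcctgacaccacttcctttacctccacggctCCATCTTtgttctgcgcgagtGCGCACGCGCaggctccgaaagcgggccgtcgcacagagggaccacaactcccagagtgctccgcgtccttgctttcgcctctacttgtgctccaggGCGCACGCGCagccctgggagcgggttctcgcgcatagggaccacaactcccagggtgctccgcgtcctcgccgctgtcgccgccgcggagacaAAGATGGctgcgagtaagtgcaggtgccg
The ATP5MC1 window holds 4 NF-Y matches before the start and an E box, that of ATP5PD an ETS and an NF-Y match, that of UQCRC2 an NF-Y, a TATA box and a YY1 match, and that of NDUFA3 2 NRF1 and 2 YY1 matches. No printed match overlaps another. The windows of NDUFB3 and NDUFB10 hold none of these letters, which says nothing about the factors.

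Among all nuclear members with a window, NRF1 letters were found in 16 of 81 windows (19.8%, against 5.78% of all windows), ETS letters in 21 (25.9%, against 10.3%) and YY1 letters in 19 (23.5%, against 5.84%). The CCAAT letters were found in 34.6% of both. TATAAA was in 8.64% of the member windows and 11.5% of all windows, and CACGTG in 8.64% and 7.26%. Several windows belong to the same gene, so these shares describe windows and not independent genes. The called members had 6 windows, with none for ATP5F1B or ATP5F1D. As the windows of NDUFB3 and NDUFB10 held none of these letters, no motif could be common to all.

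The 13 mitochondrial genes had a median of 2212 FPKM, against 19.4 FPKM over the tested nuclear members, although MT-ATP8 lay below the highest nuclear gene, ATP5F1B. They took 3.85%, 4.23% and 3.99% of all counts in knockdown replicates 1 to 3 and 4.34%, 3.76% and 3.46% in control replicates 1 to 3. The means of 4.02 ± 0.190% and 3.86 ± 0.448% (SD, n = 3 each) differed by less than the spread of either group. Control replicate 1 had the highest share and the other controls the lowest. The 90 nuclear members took 0.570%, 0.652% and 0.649% in knockdown and 0.489%, 0.620% and 0.608% in control libraries. Here each knockdown library exceeded the control of its number, while the groups overlapped.

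**Figure D3:**
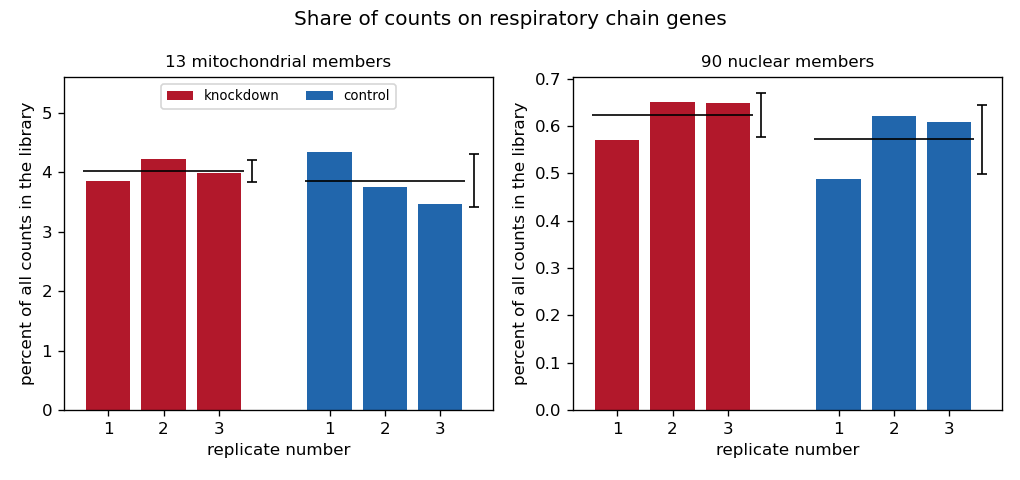
Percent of a library's counts on the 13 mitochondrial (left panel) and 90 nuclear (right panel) members, by library, with the group mean as a line and its SD as a bar. Control replicate 1 is the highest library for the mitochondrial genes (4.34%) and the lowest for the nuclear genes (0.489%).

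Among the mitochondrial subunits of complex I, MT-ND1, which forms part of the quinone channel, had 1915, 2014 and 1869 CPM in knockdown and 1833, 1823 and 1714 CPM in control cells. It was the only mitochondrial gene whose groups did not overlap. Its log2 fold change of 0.11 did not pass (edgeR adjusted p = 0.21). MT-ND3 had 613, 543 and 561 CPM in knockdown and 562, 518 and 468 CPM in control cells, higher within each pair, with a log2 fold change of 0.15 (adjusted p = 0.13 in edgeR). The membrane-arm genes MT-ND2, MT-ND4 and MT-ND5 had log2 fold changes of 0.01, 0.05 and 0.00, and MT-ND4L, which shares 7 bases with MT-ND4, one of -0.08. MT-ND6 is read from the other strand than the rest. It had 632, 476 and 448 CPM in knockdown and 680, 427 and 407 CPM in control cells, so its replicate 1 was high in both groups, and its log2 fold change was 0.06.

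MT-CYB, the subunit of complex III that carries both quinone sites, had 2923, 3590 and 3347 CPM in knockdown and 3541, 2896 and 2603 CPM in control cells. It lay below control in pair 1 and above it in pairs 2 and 3. The mitochondrial subunits of complex IV followed the same order. MT-CO2, which takes electrons from cytochrome c, had 4086, 3954 and 3708 CPM in knockdown and 5201, 3156 and 2856 CPM in control cells. For MT-CO1, where oxygen is reduced, the values were 8722, 11209 and 10766 CPM in knockdown and 10420, 10499 and 9797 CPM in control cells. Knockdown MT-CO3 was at 4519, 5241 and 4947 CPM, against 4934, 4498 and 4087 CPM in control cells. Each of these was below control in pair 1 only, and log2 fold changes over the 3 pairs were 0.13 for MT-CYB, 0.12 for MT-CO2, -0.01 for MT-CO1 and 0.12 for MT-CO3, with no call.

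Complex V has a pair of overlapping mitochondrial genes. MT-ATP6, the channel through which protons pass, had 3311, 4248 and 3870 CPM in knockdown and 4437, 3777 and 3459 CPM in control cells and a log2 fold change of -0.03. MT-ATP8, a small subunit beside it, had 14.0, 27.7 and 23.4 CPM in knockdown and 22.7, 32.2 and 25.5 CPM in control cells. It was the only mitochondrial gene below control in all 3 pairs, and its log2 fold change of -0.33 did not pass (edgeR adjusted p = 0.105). The end of MT-ATP8 and the start of MT-ATP6 share 46 bases of the mitochondrial chromosome (8527 to 8572), 22.2% of MT-ATP8 and 6.75% of MT-ATP6. The shared stretch, from the GENCODE 29 transcripts, is printed because its reads belong to both genes, with the start codon of MT-ATP6 in capitals.
MT-ATP8 and MT-ATP6 overlap, chrM:8527-8572, plus strand: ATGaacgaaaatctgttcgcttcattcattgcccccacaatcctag
On the FPKM scale MT-ATP8 averaged 104 in knockdown and 129 in control cells, against 5516 and 5690 for MT-ATP6, although both are read from a common transcript. How reads in the overlap were assigned is not given in the sources used here, and its part in the low count of MT-ATP8 was not tested. MT-ATP8 passed as lower in the edgeR fit with the replicate number and a correction for gene length (log2 fold change -0.48, adjusted p = 0.0384), where 7.92% of all genes were called lower.

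Both genomes' genes thus differed in how the replicate pairs behaved. In pair 1, the knockdown and control libraries numbered 1, only 2 of 13 mitochondrial genes were above control and their median log2 ratio was -0.25. In pairs 2 and 3, 12 of 13 were above control in each, with medians of 0.14 and 0.14. The 82 nuclear members had medians of 0.20, 0.06 and 0.09 in pairs 1, 2 and 3, and all genes -0.02, 0.01 and 0.00.

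The difference between pair 1 and the other pairs was tested in edgeR as an interaction of group and replicate 1, added after the data were seen. It was negative and passed for 8 of 13 mitochondrial genes (61.5%), against 7.96% of all genes tested. The genes were MT-CO2 (log2 difference -0.70), MT-CYB (-0.61), MT-ATP6 (-0.59), MT-ATP8 (-0.54), MT-ND4L (-0.43), MT-CO1 (-0.37), MT-CO3 (-0.37) and MT-ND6 (-0.26). The median over the 13 was -0.37, against -0.02 over all genes. Among the 82 nuclear members 5 passed with a positive difference, namely NDUFB9 (0.28), SDHA (0.37), UQCRQ (0.37), COX6C (0.32) and ATP5MC1 (0.39), against 5.06% of all genes, and ATP5F1C (-0.24) passed with a negative one. This test takes its spread from replicates 2 and 3 alone, which differ little, and a single library per group stands behind pair 1. NELFCD itself had a log2 difference of -0.52 here, so its level relative to control was lowest in pair 1. The part of this deeper knockdown in the pair differences was not tested. Mitochondrial genes are transcribed together on long transcripts, so their values are not independent.

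Replicates 2 and 3 alone were fitted in edgeR without a replicate term. This fit called 7 of 13 mitochondrial genes higher and 0 lower, where 11.7% of all genes were called higher and 13.7% lower. The log2 fold changes were 0.35 for MT-CO2, 0.33 for MT-CYB, 0.25 for MT-CO3, 0.16 for MT-ND3, 0.15 for MT-ND6, 0.13 for MT-ND1 and 0.11 for MT-CO1. In the same fit 19 of 82 nuclear members were called higher, the 8 described above among them, and 2 lower, UQCRB (-0.13) and ATP5F1E (-0.18). Blocking these libraries by number gave 11 of 13 mitochondrial and 21 of 82 nuclear members higher. It gave 0 mitochondrial and 2 nuclear members lower, where 12.7% of all genes were higher and 14.9% lower. This fit leaves fewer residual degrees of freedom than the one over 3 pairs, and its SE for MT-CO2 was only 0.017. It also blocks on numbers 2 and 3, which are matched by number only. Its counts are therefore less secure than those over 3 pairs. MT-CO1, MT-ATP6 and MT-ND4L, whose log2 fold changes were negative over 3 pairs, were positive without replicate 1 (0.11, 0.16 and 0.06).

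**Figure D4:**
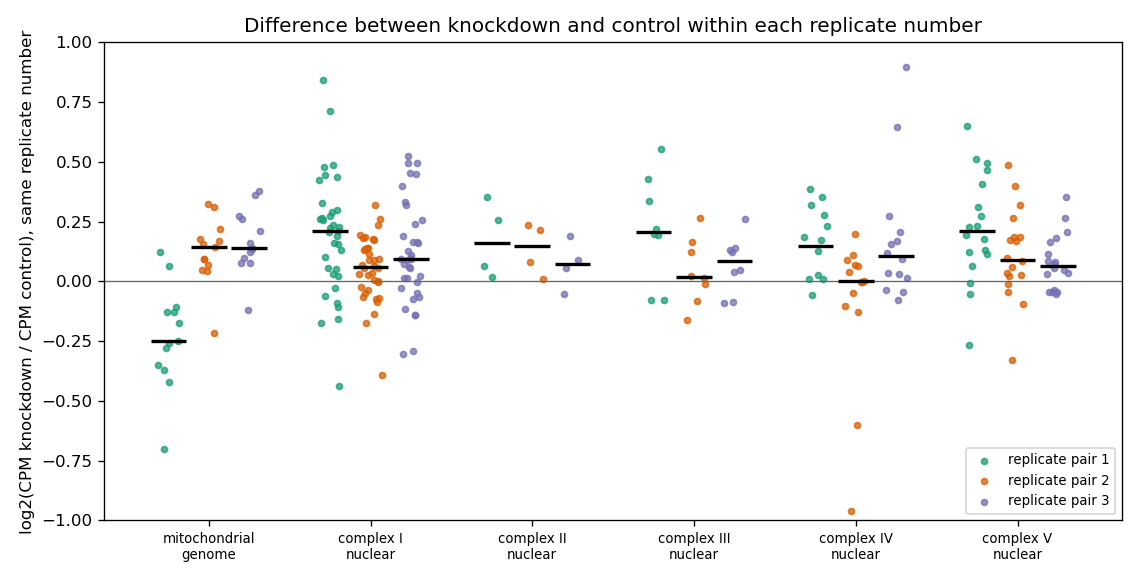
The log2 ratio of knockdown to control CPM within each replicate number for the tested members, with the median as a black bar, where 3 values outside the range of -1 to 1 are not drawn. The mitochondrial median is -0.25 in pair 1 and 0.14 in pairs 2 and 3, while the nuclear medians of complexes I to V are each largest in pair 1.

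The balance of the genomes was also read within complexes, as the summed FPKM of a complex's mitochondrial genes divided by that of its nuclear genes. For complex IV the ratio was 31.6, 30.9 and 30.2 in knockdown replicates 1 to 3 and 41.1, 27.4 and 26.7 in control replicates 1 to 3. For complex III it was 10.4, 10.8 and 10.2 in knockdown and 14.2, 8.99 and 8.33 in control libraries. Complex V had 7.47, 7.62 and 7.14 in knockdown and 11.4, 7.46 and 6.92 in control libraries, and complex I 20.9, 17.3 and 15.9 in knockdown and 27.4, 16.8 and 15.8 in control libraries. In each complex control replicate 1 had the highest ratio of the 6 libraries, and knockdown exceeded control in pairs 2 and 3. The spread among control libraries was larger than the difference between the group means in all 4 complexes.

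The ribosomal RNA genes of the mitochondrial chromosome did not share this order. The ribosomal RNA gene MT-RNR1 had 9458, 12901 and 10258 counts in knockdown and 9110, 16158 and 16973 counts in control libraries, and its interaction with replicate 1 was positive (0.58). MT-RNR2, the other ribosomal RNA gene, had 97958, 63400 and 50402 counts in knockdown and 78400, 67185 and 70541 counts in control libraries. The 22 mitochondrial transfer RNA rows summed to 200, 153 and 147 CPM in knockdown and 145, 131 and 124 CPM in control libraries, above control in each pair. The libraries were made with a kit for messenger RNA, per the labels, and these rows are given only beside the protein genes. Nuclear copies of mitochondrial protein genes, 394 rows, took 5248, 7285 and 6607 counts in knockdown and 6198, 6460 and 6622 in control libraries. The copy MTATP6P1 stood at 218, 260 and 265 CPM in knockdown and 288, 257 and 246 CPM in control libraries. It was below control in pair 1 only, as MT-ATP6 was, and its interaction with replicate 1 was negative (-0.47).

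Replicate number moved the nuclear members more than the knockdown did. Averaged over both groups, 55 of 82 nuclear members were lower in replicate 1 than in replicates 2 and 3 (67.1%) and 6 were higher, against 30.2% of all genes lower and 31.6% higher. The median log2 difference was -0.29, against 0.03 over all genes. NDUFC2, an accessory subunit of complex I, was lower by the most (log2 difference -1.46), with 6.91, 15.6 and 18.1 CPM in knockdown and 4.93, 15.4 and 16.2 CPM in control cells. ATP5MC1 (-1.13) and ATP5MC3 (-0.96) followed the same order. COX7A2L, which helps complexes III and IV join into supercomplexes, was higher in replicate 1 (0.95), at 108, 54.9 and 55.1 CPM in knockdown and 106, 55.0 and 56.5 CPM in control cells. These knockdown and control values differed little within a number. Of the mitochondrial genes 3 were higher in replicate 1 (MT-ND6 0.58, MT-ND4 0.43, MT-ND3 0.17) and 2 lower (MT-ATP8 -0.59, MT-ND2 -0.36). The labels name 2 extraction kits without saying which library used which, and the part of a kit in this order was not tested.

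Gene length also moved with these results. The tested nuclear members have a median annotated length of 2545 bases and the mitochondrial genes one of 784 bases, against 4598 bases over all tested genes. With a length trend taken out of each library and the replicate number in the edgeR model, 4 nuclear members rose, UQCRC2, ATP5MC1, NDUFA3 and ATP5S, where 5.39% of all genes did. The nuclear median became 0.07 and the mitochondrial median -0.08. Of the 8 calls, UQCRC2, ATP5MC1 and NDUFA3 were thus kept, and the rest had adjusted p-values of 0.0516 to 0.154.

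Genes that serve the chain without being members were counted from lists. Of 57 tested assembly factors, proteins that build the complexes without staying in them, 9 rose and 1 fell, against 5.48% and 8.01% of all genes, with a median log2 fold change of 0.14. For complex I 5 of 20 rose, with the largest fold changes in NDUFAF2 (0.42), NDUFAF8 (0.42), NDUFAF3 (0.39) and DMAC1 (0.35). NDUFAF2, which binds a late intermediate of the complex, had 34.4, 32.5 and 33.0 CPM in knockdown and 25.7, 24.4 and 24.3 CPM in control cells, with no overlap. For complex III 3 of 7 rose: SMIM4 (0.78), LYRM7 (0.48) and BCS1L (0.44), of which LYRM7 and BCS1L bring the Rieske protein into the complex. SMIM4 had 16.3, 11.4 and 15.9 CPM in knockdown and 6.85, 8.64 and 9.69 CPM in control cells. For complex IV 1 of 23 rose, COA4 (0.35), and 1 fell, TACO1 (-0.34), which activates translation of MT-CO1. For complexes II and V edgeR called 0 of 4 and 0 of 4. In the fit without the replicate number 0 genes of any list passed in edgeR.

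The machinery that expresses mitochondrial DNA gave 2 rises and 1 fall among 31 genes, where 5.48% of all genes rose and 8.01% fell, so its counts lie near or below the background. The lists that follow are read as counts only. SLIRP (0.42) and LRPPRC (0.23), whose proteins form a complex that stabilises mitochondrial messenger RNA, rose, and PRIMPOL (-0.59), a primase and polymerase of replication restart, fell. LRPPRC had 225, 316 and 304 CPM in knockdown and 184, 279 and 259 CPM in control cells. The mitochondrial RNA polymerase POLRMT had a log2 fold change of 0.26 (edgeR adjusted p = 0.0698), its partner TFB2M 0.34 and the packaging factor TFAM -0.01, without a call. Among 11 regulators of mitochondrial biogenesis PPARGC1B (0.44) and MYC (0.37) rose and CREB1 (-0.47) fell. Of 16 electron carriers outside the rule, ETFB (0.49), a subunit of the electron transfer flavoprotein, and CYCS (0.29), cytochrome c itself, rose. CYC1, the cytochrome c1 of complex III, whose symbol the rule does not match, had a log2 fold change of 0.04. Of 17 tricarboxylic acid cycle genes edgeR called 0 (median 0.12), and of 22 genes of mitochondrial membranes and import 1 rose, TIMM44 (0.24).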

How the data were processed

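RNA-seq counts were compared between 3 NELFCD knockdown and 3 control libraries. The authors deposited raw counts by gene and FPKM values, in which the counts are scaled by gene length and depth, per the file headers. Coordinates are on hg38, which the submitters' processing notes name, and all 103 members' coordinates matched GENCODE 29. The aligner, the counter and strand use are not given in the sources used here.

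Counts were tested with edgeR 4.0.16 in R 4.3.3 (filterByExpr, TMM scaling, robust quasi-likelihood F-test, Benjamini-Hochberg over all 14844 genes tested, threshold 0.05). CPM used the TMM-scaled library sizes (factors 0.9894 to 1.034). The SE of a log2 fold change was its size divided by the square root of F. The scripts were tested on simulated data. The alternatives used DESeq2 1.42.0, limma 3.58.1 (voom, and limma on log2 of the deposited FPKM with a pseudocount of 1), other scalings and filters, left-out libraries and a loess correction for gene length (span 0.5).

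The main model had no replicate term. Deviations from the group mean were correlated between libraries of equal number (0.838, 0.629 and 0.616 over genes for replicates 1, 2 and 3), so a blocked fit on the replicate number is printed beside it. The pairing comes from the data, not the labels, and rests on replicate 1, since replicate 2 minus replicate 3 had a correlation of -0.005 between knockdown and control. edgeR's common biological variation was 8.17% with the block (2 residual degrees of freedom) and 32.6% without it (4).

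Named were the 13 mitochondrial genes, the nuclear members that passed in either fit, catalytic and redox subunits, restricted isoforms, the nuclear gene of highest FPKM per complex, and up to 4 passing genes per list. Other members (such as UQCRC1, SDHC, NDUFA7, NDUFC2, COX7A2L and ATP5S) were chosen after their values were seen. Members, lists and rules were chosen with earlier results of these data known. Poisson counting error is small at these depths except for genes of a few counts. The values of 1 catalytic subunit gene are not reported here.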

Additional observations from a re-analysis of the deposited data

How the results depend on the processing

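Without a replicate term edgeR called 0 members. So did each alternative without one, except the fit of replicates 2 and 3 alone given below. With the replicate block 8 of 82 nuclear members rose (5.48% of all genes rose), as with RLE size factors (8, all genes 5.19%), with TMM computed without the mitochondrial chromosome (8, 5.48%) and in limma-voom (8, 5.79%). The block gave 15 with upper-quartile scaling (all genes 8.07%), 3 in DESeq2 (2.98%), 9 without a filter on low counts (3.48%), 9 at a mean of at least 5 CPM (7.15%) and 4 with the length offset (5.39%). Replicate 1 as a batch term gave 15 (9.29%). Leaving out 1 replicate pair gave 4 to 21 nuclear rises, 0 to 2 nuclear falls, 0 to 11 mitochondrial rises and 0 to 1 mitochondrial falls, the upper counts of rises without replicate 1, where 12.7% of all genes rose, against 2.01% without replicate 2 and 4.27% without replicate 3. Replicates 2 and 3 alone, without a replicate term, gave 19 nuclear rises, 2 nuclear falls and 7 mitochondrial rises (all genes 11.7% higher, 13.7% lower). MT-ATP8 was the 1 mitochondrial fall in the block without a filter and with the length offset.

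The nuclear median without a replicate term was 0.11, and leaving out 1 library gave 0.015 (without control replicate 1) to 0.20 (without knockdown replicate 1). The mitochondrial share of counts moved by less than 1 SD under its alternatives. Signs turned for MT-ATP6 (0.164 with the block without replicate 1, 0.165 in replicates 2 and 3 alone), MT-CO1 (0.114 and 0.113) and MT-ND4L (0.060 and 0.061), and with the length offset for MT-CO3 (-0.00925), MT-ND1 (-0.013, and -0.013 with the block), MT-ND3 (-0.000195) and UQCRH (-0.060, and -0.060 with the block). Leaving out 1 library, NDUFA4L2 ran between -1.47 and 0.218, the last without control replicate 1, and in the block without replicate 3 it was the 1 nuclear fall (-1.38). The causes were not tested. Of 1850 values of named genes under alternatives, 1478 kept their side of the threshold, among them 113 sign changes within 1 SE of a value that passed in neither fit. A further 359 newly passed it in the same direction and 13 turned sign as listed. The reference was the fit without the replicate number, in which 0 genes passed, so no call could be lost. Of the calls with the replicate number, only ATP5MC1 and NDUFA3 passed in each of 12 such fits (adjusted p up to 0.0484 and 0.0448). The 12 fits share their libraries and are not independent.

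NELFCD passed with the block at -1.30 in edgeR, -1.31 with RLE, -1.26 with upper-quartile scaling, -1.30 without the mitochondrial chromosome, -1.32 in DESeq2, -1.29 in limma-voom, -1.32 without a filter, -1.29 at a mean of at least 5 CPM and -1.28 with the length offset. It passed at -1.28 in DESeq2 without the block, at -1.30 with replicate 1 as a batch term, at -1.15 in replicates 2 and 3 alone, and at -1.15, -1.34 and -1.45 in the block without replicate 1, 2 or 3. Genes under about 1 CPM, such as NDUFA7 and COX7A1, were too shallow for changes of the size seen in the called members.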
